A study of Mus musculus with 6 samples.

Results

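Small nucleolar RNAs (snoRNAs) guide the chemical modification of ribosomal and spliceosomal RNA, and in mammals most of them are cut out of the introns of longer host genes. Where the host codes for no protein, the spliced host RNA is a long non-coding RNA (lncRNA), and such hosts are named Snhg, for snoRNA host gene, or Gas5, for growth arrest-specific transcript. Box C/D snoRNAs direct 2′-O-methylation and box H/ACA snoRNAs direct pseudouridylation, while the spliced RNA of several hosts is destroyed in the cytoplasm by nonsense-mediated decay. The 10 genes described here, Gas5, Snhg1, Snhg3, Snhg5, Snhg6, Snhg8, Snhg11, Snhg12, Snhg15 and Snhg20, were chosen by gene symbol. No rule on their values was used, but earlier results of these data were known. The table types Snhg11 as protein-coding and the other 9 as non-coding. All 10 matched 1 row each among the 54232 genes of the table, and each of the 10 reached the mean of 10 normalized reads that was required for testing, as did 16202 genes in all.

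Nuclear RNA was measured in cardiomyocyte nuclei from frozen left ventricles of adult mice, in 3 WT and 3 UtyGT libraries. UtyGT mice carried the Uty Gt(XS0378)Wtsi gene trap, which sits in the fourth intron of the Y-linked Uty gene and is present in every cell, while WT controls were isogenic C57BL/6.Y<129P2> males, so that both groups had a Y chromosome of 129P2 origin. Sorting used an antibody to PCM1, which surrounds the nucleus in cardiomyocytes, and total RNA of 150000 nuclei entered a stranded library. Each library bore the number 11, 15 or 31, with each number once in each group. The nuclei belonged to the material also taken for chromatin accessibility, which the study prepared on separate days. Whether a number marks such a day, and how many animals gave a library, is not stated. The submitters did label a second set of values, without number 15, with a day effect. The p-values thus cover only the spread among these libraries, and this spread can be technical.

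Gene reads per library numbered between 18204752 and 23252887. Uty stood between 1212 and 1332 normalized reads in WT and between 14.1 and 22.1 in UtyGT, so that the trapped gene followed the labels. Cardiomyocyte markers, such as the titin gene Ttn, summed to between 1979240 and 2404650 normalized reads per library. Without libraries of unsorted nuclei, enrichment by the sort was not tested. Markers of leukocytes summed to between 10720 and 27003 in the libraries of numbers 11 and 31, but to 2108 in WT 15 and 898 in UtyGT 15. Both number 15 libraries therefore stood apart from the other 4, also on the axis of largest variance (73.3%) in a principal component analysis. Fibroblast markers summed to between 1743 and 8403 in WT and between 1811 and 5726 in UtyGT. None of the 49 marker genes was at 0 in all 6 libraries.

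In the GENCODE M21 annotation of GRCm38, the 10 genes held 33 snoRNA or scaRNA genes, the latter for small Cajal body RNAs. Gas5 (chromosome 1, 161034422 to 161038539, plus strand) held 10 of them, among them Snord47, Snord78 and a pair of overlapping Snord80 entries. Snhg1 (chromosome 19, 8723475 to 8726443, plus strand) held 8, including Snord22. Snhg12 (chromosome 4, 132308623 to 132311024, plus strand) held 5, which were Snora44, Snora61, Snord99 and a pair of overlapping Snora16a entries. Snhg3 (chromosome 4, 132348014 to 132353686, minus strand) held Snora73a and Snora73b, Snhg5 (chromosome 9, 88521050 to 88522929, minus strand) held Snord50a and Snord50b, and Snhg11 (chromosome 2, 158375638 to 158386145, plus strand) held Gm25129 and Gm25187. A single small RNA gene lay in Snhg6 (Snord87; chromosome 1, 9941959 to 9944118, minus strand), Snhg8 (Snora24; chromosome 3, 123507552 to 123508404, minus strand), Snhg15 (Snora9; chromosome 11, 6525591 to 6528760, minus strand) and Snhg20 (the scaRNA gene Gm26083; chromosome 11, 117076008 to 117078955, plus strand).

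The sequences of 6 of these small RNAs are given because the results turn on which of them had reads. Snord87, Snora73b and Snora73a had reads, whereas Snord47, Snord50a and Snora24 had none. Capitals mark box C (ATGATGA or GTGATGA) and box D (CTGA) in box C/D snoRNAs and the ACA box near the 3′ end of box H/ACA snoRNAs, each searched on the RNA's own strand. Sequences are from the GENCODE M21 transcripts of GRCm38 and run 5′ to 3′.
Snord87 (chr1:9942463-9942549, minus strand, in Snhg6): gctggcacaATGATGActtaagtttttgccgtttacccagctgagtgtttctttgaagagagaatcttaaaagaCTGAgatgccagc
Snora73b (chr4:132352322-132352526, minus strand, in Snhg3): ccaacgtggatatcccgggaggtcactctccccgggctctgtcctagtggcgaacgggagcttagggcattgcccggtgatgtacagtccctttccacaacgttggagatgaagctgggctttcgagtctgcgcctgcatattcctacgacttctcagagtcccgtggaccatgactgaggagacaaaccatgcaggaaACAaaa
Snora73a (chr4:132352775-132352979, minus strand, in Snhg3): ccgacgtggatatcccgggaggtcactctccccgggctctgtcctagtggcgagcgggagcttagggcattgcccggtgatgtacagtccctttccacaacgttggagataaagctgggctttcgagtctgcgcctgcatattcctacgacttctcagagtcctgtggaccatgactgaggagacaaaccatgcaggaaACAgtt
Snord47 (chr1:161038082-161038158, plus strand, in Gas5): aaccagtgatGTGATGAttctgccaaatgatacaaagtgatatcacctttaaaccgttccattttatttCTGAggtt
Snord50a (chr9:88521529-88521600, minus strand, in Snhg5): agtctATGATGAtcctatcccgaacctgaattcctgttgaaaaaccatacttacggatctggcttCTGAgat
Snora24 (chr3:123507937-123508066, minus strand, in Snhg8): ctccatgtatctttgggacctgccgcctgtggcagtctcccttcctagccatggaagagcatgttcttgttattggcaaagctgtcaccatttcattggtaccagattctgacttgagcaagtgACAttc

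Of the 21 small RNAs under 100 nt in the 10 hosts, 17 had a box C starting in the first 20 bases together with a box D starting in the last 20. This held for 63.4% of all 462 annotated snoRNA and scaRNA genes under 100 nt. Of the 12 longer than 110 nt, 8 had ACA starting 6 bases before the end, against 26.0% of all 1048 of that length. Both copies in Snhg3 have 205 nt and are 96.6% identical, and the 7 differences, with the base of Snora73b first, positions from the 5′ end and the base of Snora73a last, are A3G, A54G, G111A, C164T, A203G, A204T and A205T. Reads of these 2 genes may have been split between copies or left out, since the handling of reads with several matches is not given in the sources used here. Snord50a and Snord50b differ by C50A, with the base of Snord50a first.

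Whether a small RNA had reads followed its position relative to the exons of its host. Of the 33 genes, 29 lay wholly inside the annotated exons of their host, merged over its transcripts, and all 29 had 0 reads in every library. The other 4 had reads, with 1898 for Snord87, 953 for Snora73b, 41 for Snora73a and 1 for Gm25129 over the 6 libraries. Snord87, Snora73b and Gm25129 lay outside every host exon, while 77.6% of Snora73a was covered by merged exons. In the whole table, 134 snoRNA and scaRNA genes lay wholly inside same-strand exons of longer genes, likewise merged, and 0 of them had a read. Outside such exons, 344 of 1396 (24.6%) had at least 1 read, and of 28 partly inside, 18 had (64.3%).

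A count of 0 allows up to 3 reads in a library and covers counting error only. As background, featureCounts by default assigns no read that overlaps exons of more than 1 gene, and the setting used here is not stated. Whether this setting gave the zeros was not tested. The zeros are thus given as listed, and no level of the snoRNA itself is read from them.

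**Figure D1:**
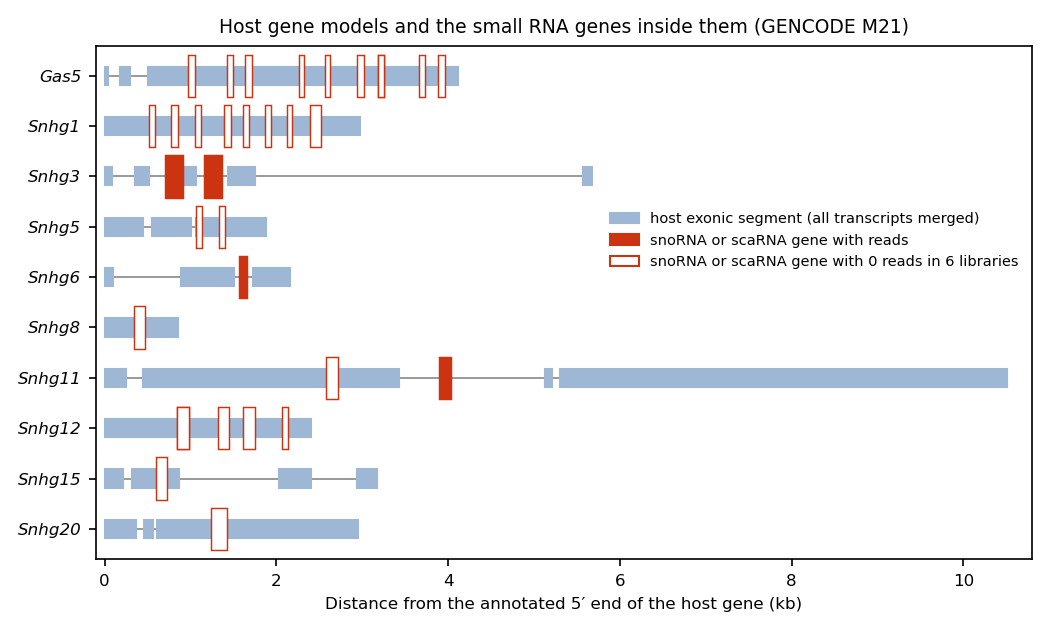
Gene models of the 10 hosts, drawn from the annotated 5′ end (x axis, kb), with merged exonic segments in blue and small RNA genes as red boxes, filled where any library had a read. The 29 open boxes lie wholly in blue segments, and the 4 filled boxes do not; overlapping entries of Snord80 and Snora16a are drawn on top of each other.

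Merged exons covered at least 90% of the span in 6 hosts, Gas5 (91.3%), Snhg1 (100%), Snhg5 (92.0%), Snhg8 (100%), Snhg12 (100%) and Snhg20 (94.8%). In Gas5, 20 of 25 annotated transcripts were retained-intron transcripts, and in Snhg1 14 of 18. Reads of unspliced host RNA, which is common in nuclei, can thus be counted for these hosts. Exons covered 17.4% of the span of Snhg3, 42.9% of Snhg15, 53.1% of Snhg6 and 81.1% of Snhg11. Some host spans also overlap other genes. Zbtb37 lies opposite to Gas5 over 428 bp, and Rcc1, for a regulator of chromosome condensation, shares the strand of Snhg3 over 5592 bp. Mcmdc2 lies opposite to Snhg6 over 127 bp. The library kit keeps strand, but whether the counting used strand is not given, and reads in these overlaps may be shared.

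The hosts spanned a wide range of levels in cardiomyocyte nuclei. In such bulk libraries, fewer cells of a type and less RNA per cell cannot be told apart. Together they took between 0.0101% and 0.0122% of the gene reads of a library. Per kb of merged exon, Gas5 had the highest level, 225 ± 18.2 normalized reads (SD, n = 6 libraries), which was 50.1 times that of Snhg11. The order after Gas5 was Snhg20 (156 ± 20.6), Snhg8 (123 ± 31.6), Snhg12 (105 ± 7.98), Snhg6 (98.5 ± 13.9), Snhg5 (95.2 ± 12.3), Snhg1 (79.2 ± 7.01), Snhg15 (56.9 ± 9.43), Snhg3 (49.7 ± 7.71) and Snhg11 (4.49 ± 1.42). The ranges over the 6 libraries did not overlap between Gas5 and Snhg20, between Snhg1 and Snhg15 or between Snhg3 and Snhg11. They overlapped between all other neighbors in this order. Among all tested genes with a gene model, Gas5 stood at percentile 85.9 of this level and Snhg11, which is known mainly from neurons, at 4.36. The merged exons take in at least 90% of the span of 6 hosts but 17.4% of that of Snhg3. Unspliced RNA can thus enter the levels of the hosts to unlike extents. If reads over small RNA genes were left out, the host lost them too, while its length keeps those bases. The effect of both limits on the order was not tested.

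**Figure D2:**
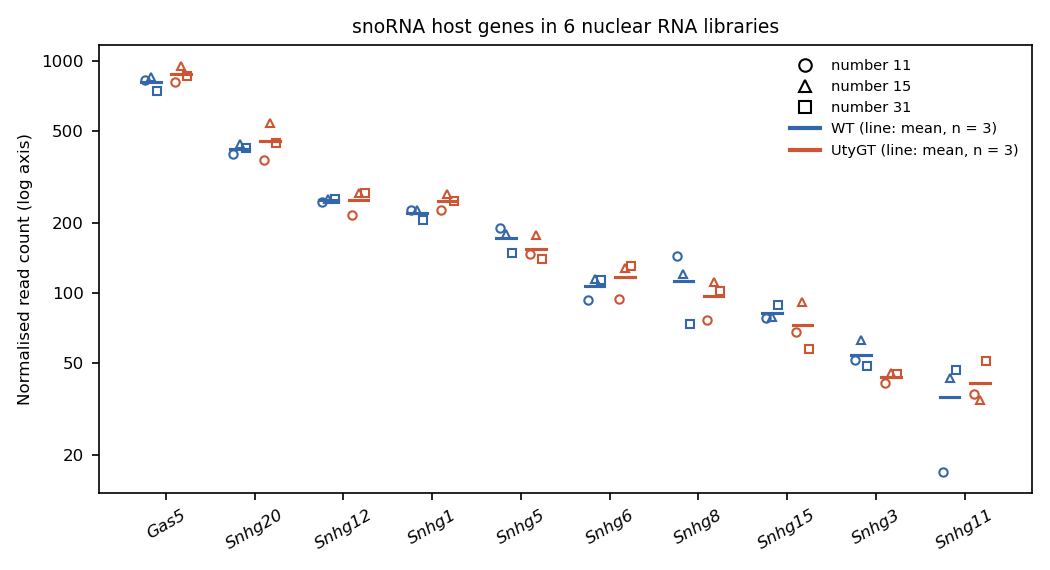
Normalized read counts (log axis) of the 10 hosts in each library, with WT in blue, UtyGT in red, symbols for the library numbers and lines at the group means (n = 3). The groups overlap for every gene except Snhg3, where the highest UtyGT value, 45.1, lies below the lowest WT value, 48.6.

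The comparison of UtyGT with WT addressed whether the trap changed the nuclear level of these hosts. By limma over all genes, 0 of the 10 passed an adjusted p of 0.05 in either direction and 0 had an unadjusted p under 0.05. Over all tested genes the shares were 0.00617% (Uty alone) and 1.2%. The same counts of 0 and 0 were obtained for the 10 hosts with edgeR, with DESeq2 and with the library number as a block. Over all tested genes, DESeq2 called 2 at an adjusted p of 0.05. The study, which used DESeq2, also reported Ddx3y as lower in UtyGT nuclei, a gene that limma did not call here. The median log2 fold change over the 10 hosts was 0.04, against -0.01 over all tested genes, and 5 of 10 were above 0, against 48.6%. The adjusted p was 1.00 by limma for each of the 10.

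Gas5, whose spliced RNA accumulates when cells stop growing and can bind the glucocorticoid receptor, was the most abundant host. Numbers 11, 15 and 31, in this order here and for the genes that follow, had 830, 858 and 748 normalized reads in WT and 817, 956 and 864 in UtyGT. The groups overlapped, and the number 15 library was the highest in each. UtyGT minus WT was 0.11 on the log2 scale (SE 0.10; 95% interval -0.11 to 0.34), with means of 812 ± 57.3 and 879 ± 70.7 (SD, n = 3 each). It was 0.052 without UtyGT 15 and 0.056 without WT 31.

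Snhg1, with 8 small RNA genes the fullest host after Gas5, had 228, 229 and 207 normalized reads in WT and 229, 268 and 250 in UtyGT. UtyGT was higher in 3 of 3 pairs of equal number, although for number 11 by only 0.0093 on the log2 scale, and the fitted log2 fold change was 0.17 (SE 0.11; interval -0.10 to 0.44). Snhg6, the host of Snord87, was likewise higher in 3 of 3 pairs, and again by little, 0.014, for number 11. It had 93.8, 115 and 115 normalized reads in WT and 94.7, 129 and 131 in UtyGT, with a log2 fold change of 0.12 (SE 0.19; interval -0.32 to 0.57). This was 0.024 without WT 11, 0.040 without UtyGT 31, 0.051 without UtyGT 15 and 0.27 without UtyGT 11. UtyGT above WT in 3 of 3 pairs was seen in 8.51% of all tested genes. For numbers 11 and 31, libraries of equal number were no closer than crossed ones, as given under processing.

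Snhg3, the host of Snora73a and Snora73b, was the only member whose groups did not overlap. It had 51.6, 62.7 and 48.6 normalized reads in WT and 41.0, 45.1 and 45.0 in UtyGT, a mean of 54.3 ± 7.40 against 43.7 ± 2.31. UtyGT was lower in every pair, and all 3 of its libraries lay below the lowest WT library. Groups that do not overlap, with UtyGT lower, were seen in 2.32% of tested genes. With UtyGT higher, groups that do not overlap were seen for 0 hosts and 3.1% of tested genes. The log2 fold change of -0.30 (SE 0.20; interval -0.78 to 0.18) did not pass. Counting error at this depth was 14.2%, and behind these values are between 39 and 68 reads per library. Reads of Rcc1, whose span overlaps that of Snhg3 on its strand, may be among them, and Rcc1 stood at 210 normalized reads in WT and 238 in UtyGT, a log2 fold change of 0.18 (SE 0.11).

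Snhg5, the host of the Snord50 pair, was also lower in UtyGT in 3 of 3 pairs, a pattern seen in 8.89% of tested genes. It had 191, 181 and 149 normalized reads in WT and 147, 178 and 141 in UtyGT. The difference between the number 15 libraries was only -0.017 on the log2 scale, and the groups overlapped. Over all libraries it was -0.16 (SE 0.16; interval -0.53 to 0.22).

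The remaining hosts differed in direction between pairs. Snhg12, the host of Snora44 and Snora61, was closest to equal, with 248, 254 and 256 normalized reads in WT and 218, 270 and 270 in UtyGT. Its WT libraries were close to each other (SD 4.50), whereas UtyGT 11 was the lowest of all 6. UtyGT minus WT was -0.01 on the log2 scale (SE 0.12; interval -0.30 to 0.28), 0.094 without UtyGT 11 and 0.0012 without WT 31.

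Snhg20, which holds a scaRNA gene, had 399, 440 and 421 normalized reads in WT and 376, 542 and 443 in UtyGT. UtyGT 15 was the highest and UtyGT 11 the lowest of the 6 libraries. The log2 fold change was 0.09 (SE 0.14; interval -0.25 to 0.43), and -0.042 without UtyGT 15. Snhg15, the host of Snora9, had 77.8, 79.2 and 88.6 in WT and 68.4, 92.1 and 57.5 in UtyGT, so that UtyGT 15 was the highest and UtyGT 31 the lowest. On the log2 scale UtyGT minus WT was -0.20 (SE 0.22; interval -0.71 to 0.32), -0.043 without UtyGT 31 and -0.38 without UtyGT 15.

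Snhg8, the host of Snora24, had 144, 121 and 73.5 normalized reads in WT and 76.8, 112 and 102 in UtyGT. Both the highest and the lowest library were WT. The fitted log2 fold change was -0.18 (SE 0.29; interval -0.86 to 0.50), and 0.024 without WT 11. Snhg11 had 16.9, 43.3 and 46.5 in WT and 36.8, 34.8 and 51.2 in UtyGT, with WT 11 far below the others at 18 reads. Its log2 fold change was 0.30 (SE 0.42; interval -0.70 to 1.30), and -0.15 without WT 11.

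The intervals state how large a difference these libraries could have missed. For 6 hosts, Gas5, Snhg1, Snhg5, Snhg6, Snhg12 and Snhg20, the interval of the fold change lay within 1.5-fold in either direction, and for 9 within 2-fold. The narrowest was that of Gas5, from 0.925 to 1.27, and the widest that of Snhg11, from 0.617 to 2.47. These misses of the threshold do not show that the groups are equal.

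**Figure D3:**
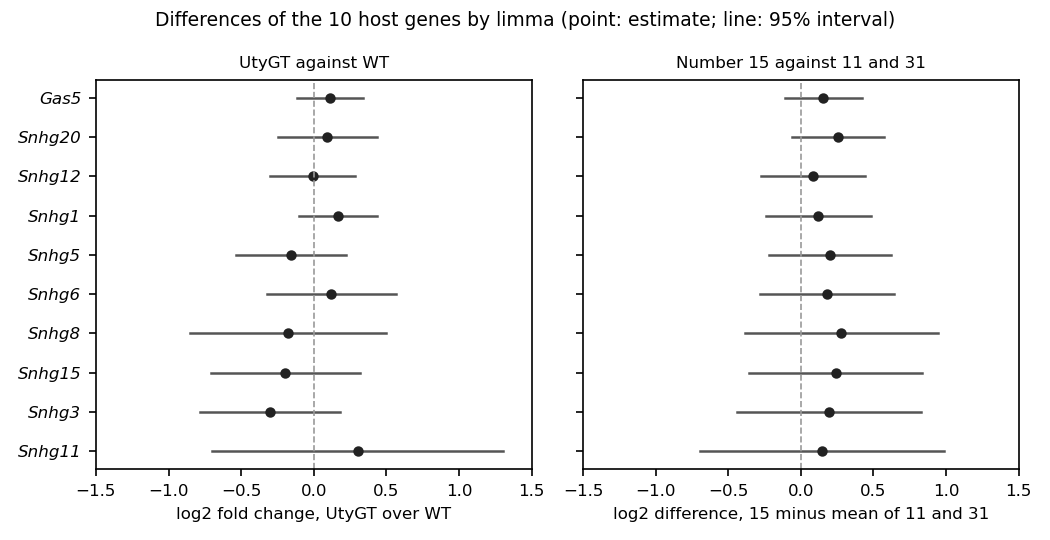
Estimates and 95% intervals by limma for the 10 hosts, in order of mean level, as log2 fold change UtyGT over WT (left) and log2 difference of number 15 minus the mean of 11 and 31 (right). Every interval includes 0, and all 10 points on the right lie above 0.

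The spread between libraries of a group differed among the hosts. The coefficient of variation within groups was 6.71% for Snhg1, 7.57% for Gas5, 8.49% for Snhg12 and 10.3% for Snhg3, and 26.2% for Snhg8 and 35.8% for Snhg11. The value that read counting alone would give was 6.49% for Snhg1, 3.42% for Gas5 and 16.2% for Snhg11. For Snhg3 it was 14.2%, above the measured spread. In 7 of 10 hosts the spread was below the median of all tested genes whose mean lay within 1.2-fold of theirs. It was above that median in Snhg8 (26.2% against 17.6%), Snhg11 (35.8% against 27.8%) and Snhg20 (13.5% against 10.3%).

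The libraries of different number were compared with the group as a covariate, since both number 15 libraries stood apart. By a limma F test, 0 of 10 hosts passed an adjusted p of 0.05, against 4.79% of all tested genes, and 0 had an unadjusted p under 0.05, against 9.57%. With edgeR and DESeq2 both counts were also 0 for the 10 hosts. Among the 776 genes called, 771 were lower in number 15 than in the mean of 11 and 31. They included 10 of 10 leukocyte markers, with a median of -3.84 on the log2 scale. The count of 776 was 373 without WT 15, 435 without UtyGT 15 and 1240 without UtyGT 11. Fibroblast markers were also lowest in number 15 in both groups, with sums of 1743 in WT 15 and 1811 in UtyGT 15. In UtyGT 11 the sum was close to the latter, at 2082. The median difference of fibroblast markers was -1.15 on the log2 scale, with 0 of 10 above 0 and 0 of 10 called. Endothelial and mural cell markers had medians of -0.12 and 0.04, with 1 of 10 and 5 of 9 above 0. The part of these marker lists in the host values was not tested.

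All 10 hosts were above 0 for number 15 against the mean of 11 and 31, with log2 differences between 0.08 (Snhg12) and 0.28 (Snhg8) and a median of 0.19. Over all tested genes 53.2% were above 0, with a median of 0.02. Number 15 was the highest of the 3 numbers in both groups for 4 hosts, Gas5, Snhg1, Snhg3 and Snhg20, a pattern seen in 16.1% of tested genes, and the lowest in both for 0, against 17.9%. For Snhg20 the difference was 0.26 (SE 0.14; interval -0.06 to 0.58; adjusted p = 0.937 by the limma F test), and for Gas5 0.15 (SE 0.12; interval -0.11 to 0.42). Each interval of the 10 included 0. The value of Snhg8 was 0.0070 without UtyGT 11, 0.033 without WT 31, 0.52 without UtyGT 31 and 0.55 without WT 11, and that of Snhg12 was 0.014 without UtyGT 15. Snhg11 turned to -0.15 without WT 11 and to -0.31 without WT 15, and Snhg15 to -0.067 without UtyGT 15.

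The small RNAs with enough reads to test were Snord87 and Snora73b. Snord87, a box C/D snoRNA, had 283, 378 and 180 normalized reads in WT and 251, 411 and 358 in UtyGT. WT 31 was the lowest, and number 15 was the highest in each group. UtyGT minus WT was 0.31 on the log2 scale (SE 0.30; interval -0.39 to 1.02) and did not pass (adjusted p = 1.00 by limma). It was 0.027 without WT 31 and 0.56 without WT 15. For number 15 against 11 and 31 the difference was 0.60 (SE 0.23), which did not pass by the F test (adjusted p = 0.689; 0.0316 and a difference of 0.85 without UtyGT 31). Per kb, the level of Snord87 was between 20.8 and 43.2 times that of its host Snhg6. This ratio was lowest in WT 31, where Snhg6 itself was at 115 normalized reads. It divides by a length of only 87 bp for Snord87. Because Snord87 lies outside every host exon, reads of unspliced Snhg6 RNA may be counted for it. The ratio is thus not read as a level of the snoRNA over its host RNA.

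Snora73b, a box H/ACA snoRNA, had 210, 94.9 and 123 normalized reads in WT and 168, 197 and 148 in UtyGT. The highest and the lowest library were both WT. Its log2 fold change of 0.33 (SE 0.29; interval -0.36 to 1.03) did not pass and was -0.020 in a second table that holds only numbers 11 and 31. It was 0.081 without WT 15. Its level per kb was between 7.29 and 21.04 times that of Snhg3. The lowest ratio was in WT 15, the library with the most Snhg3. Snora73b also lies inside the span of Rcc1 on the same strand, and Rcc1 is among the protein-coding hosts listed below. Reads of unspliced Snhg3 or Rcc1 RNA may be counted for Snora73b, so the ratio is not read as snoRNA over host RNA. The near-identical Snora73a had between 1 and 13 reads per library, too few to test.

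**Figure D4:**
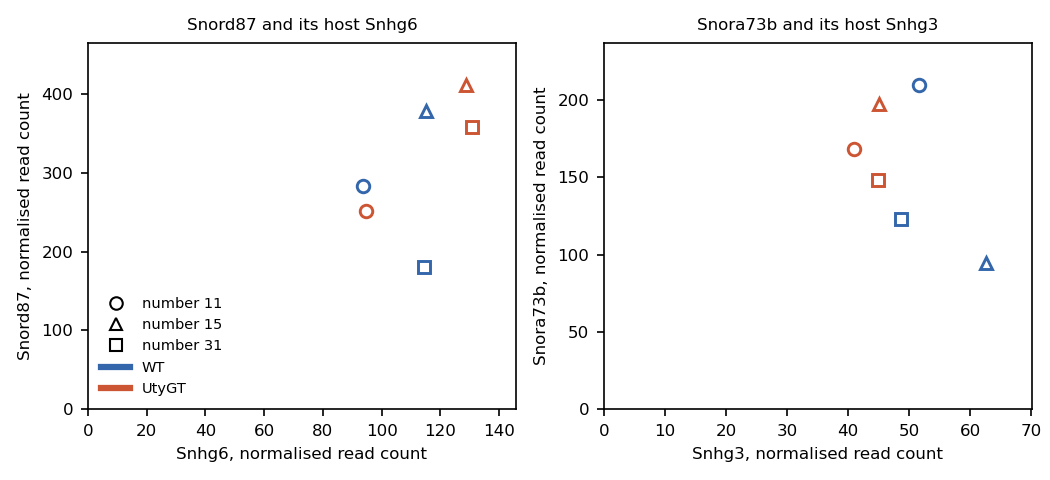
Normalized read counts of Snord87 against its host Snhg6 (left) and of Snora73b against its host Snhg3 (right), 1 point per library, with WT in blue, UtyGT in red and symbols for the library numbers. The lowest Snora73b value, 94.9, is in WT 15, which has the highest Snhg3 value, 62.7. Snora73b also lies inside the span of Rcc1 on the same strand.

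Other genes of the snoRNA pathway also gave 0 calls between UtyGT and WT, with every adjusted p at 1.00 by limma. Of the other non-coding hosts listed, 7 were measured, with a median log2 fold change of 0.02, Zfas1 at -0.18 (SE 0.13), Rian at -0.93 (SE 0.68) and Snhg17 at 0.15 (SE 0.14). This median was -0.15 without WT 31. Rian had 40.3 normalized reads in WT 11 but between 4.21 and 13.6 in the other libraries. The 35 protein-coding hosts, which include many ribosomal protein genes, had a median of -0.04, with Rcc1 at 0.18 and Rpl10 at -0.19 (SE 0.13). The 19 genes for snoRNP proteins and their assembly had a median of 0.02. Among them Gar1 was at 0.35 (SE 0.22) and Nhp2 at 0.27 (SE 0.19), both subunits of H/ACA particles, and Nop58, a core protein of C/D particles, was at 0.15 (SE 0.12).

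Nonsense-mediated decay factors had a median of 0.02 over 17 genes, with Rbm8a, of the exon junction complex, at 0.19 (SE 0.13). The exosome and snoRNA trimming factors had a median of -0.02 over 15, with Exosc4 at -0.20 (SE 0.14). Many hosts share with ribosomal protein genes a 5′ terminal oligopyrimidine (TOP) start, through which translation follows growth signals. Regulators of TOP mRNAs had a median of 0.02 over 10, with Rptor, for a subunit of the mTOR complex, at 0.07 (SE 0.10). TOP mRNAs other than those of ribosomal proteins had a median of 0.00 over 16, with Pabpc1, the poly(A)-binding protein gene, at -0.22 (SE 0.14).

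Between library numbers, 0 genes of these lists were called except 1 TOP mRNA, Vim, for the intermediate filament vimentin. Vim was lower in number 15 by -2.38 on the log2 scale (SE 0.31; adjusted p = 0.00546 by the limma F test). The median over the 16 TOP mRNAs of its list was -0.02. Leukocyte and fibroblast marker sums were also lowest in number 15 in both groups. The fibroblast sum of UtyGT 15, 1811, was close to the 2082 of UtyGT 11. The part of such cells in the Vim values was not tested. Against the median of 0.19 for the 10 hosts, the median of number 15 minus 11 and 31 was 0.23 for the other non-coding hosts, of which 6 of 7 were above 0, with Snhg14 at 0.34 (SE 0.16). It was -0.03 for the protein-coding hosts, of which 15 of 35 were above 0, and -0.01 for the snoRNP genes. The number 15 value of the hosts and of these lists rests on the same 2 libraries.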

How the data were processed

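The 10 hosts were taken by symbol, and they and the lists were chosen with earlier results of these data known. The submitters' processing notes name CASAVA 1.4, STAR 2.5.1b, featureCounts 1.6.0 and DESeq2 1.22.2, with GRCm38 as build, and the authors took gene models from Ensembl 98. The deposited values per library, and their deposited mean, are a signal in normalized reads, that is, gene counts scaled by a library's size factor and not by length. The deposited log2 fold changes with standard errors, the deposited Wald statistic (a score) and the deposited p-values hold the authors' own comparison and were not used. A second deposited table, which its label ties to a day effect, holds 4 libraries, those of numbers 11 and 31. It was normalized on its own, and its reads differed for 0 genes.

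Values above 0 were multiples of 1 unit per library in 100% of cases (tolerance 0.0001 reads), from which whole reads were recovered. Floors for a count of 0 cover counting error only, since amplified reads are not independent molecules. The intervals of differences come from the limma fits and cover only the spread among these libraries. Groups were compared by limma-trend (limma 3.58.1, R 4.3.3) on log2(normalized count + 1), which understates changes of low genes, for genes (16202) whose mean reached 10. Benjamini-Hochberg adjustment ran over all of them, the threshold was 0.05, and moderated comparisons of groups were two-sided. Library numbers were compared by an F test with the group as a covariate. Alternatives were pseudocounts 0.5 and 5, no filter, a minimum mean of 50, TMM scaling, edgeR 4.0.16 and DESeq2 1.42.0 on whole reads, the library number as a block, the table of 4 libraries, no group covariate and leaving out libraries. Scripts were tested on simulated data.

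Deviations from the group mean were correlated between the libraries that share a number, with values across genes, which are not independent replicates, of 0.252, 0.805 and 0.413 for numbers 11, 15 and 31, so that numbers were treated as pairs in the block. The correlation was 0.729 for WT 11 with UtyGT 31, so that for 11 and 31 the pairing was no closer than the crossed one. Gene models and sequences came from GENCODE M21 (GRCm38), which holds 54079 of the 54232 genes, whereas the authors used Ensembl 98. The hosts were named with all values, small RNA genes inside them where their mean was at least 10, and of each list up to 3 genes with the smallest p. The other small RNA genes, printed sequences included, were named after their values were seen.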

Additional observations from a re-analysis of the deposited data

How the results depend on the processing

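Over the alternatives run, 0 of the 10 hosts passed in either comparison, and with the replicate block the count was also 0. The count over all genes between UtyGT and WT was 1, and 2 with DESeq2 and with the replicate block. It ranged from 1 to 2 (without UtyGT 31) when 1 library was left out. Between library numbers it was 776, with 478 at a minimum mean of 50 (fewer genes tested) and 0 without both number 15 libraries, and it ranged from 373 to 1240 when 1 library was left out. The log2 fold changes ranged, over fits without 1 library, from -0.46 to 0.024 for Snhg8, from -0.15 to 0.55 for Snhg11, from -0.060 to 0.094 for Snhg12 and from -0.042 to 0.22 for Snhg20. Without a change of sign they ranged from 0.052 to 0.16 for Gas5, 0.11 to 0.22 for Snhg1, -0.37 to -0.19 for Snhg3, -0.26 to -0.084 for Snhg5, 0.024 to 0.27 for Snhg6, -0.38 to -0.043 for Snhg15, 0.027 to 0.56 for Snord87 and 0.081 to 0.65 for Snora73b. In the table of 4 libraries Snhg20 was at -0.0024 and Snora73b at -0.020. For number 15 against 11 and 31, the same fits ranged from -0.31 to 0.61 for Snhg11, from -0.067 to 0.55 for Snhg15 and from -0.76 to 0.32 for Snora73b. Those without a change of sign ranged from 0.10 to 0.21 for Gas5, 0.060 to 0.18 for Snhg1, 0.069 to 0.32 for Snhg3, 0.096 to 0.31 for Snhg5, 0.14 to 0.22 for Snhg6, 0.0070 to 0.55 for Snhg8, 0.014 to 0.15 for Snhg12, 0.10 to 0.41 for Snhg20 and 0.35 to 0.85 for Snord87. The causes were not tested. Gas5, Snhg1, Snhg3, Snhg5, Snhg6 and Snhg15 kept their sign between groups in every alternative in which they were tested. Snhg3 and Snhg11 fell below the minimum of 50. Counting error at this depth was 16.2% for Snhg11 and 9.66% for Snhg8, below their spread between libraries of 35.8% and 26.2%.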
